A study of Mus musculus with 4 samples.

Results

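Pericytes and smooth muscle cells are the mural cells that wrap capillaries, arterioles and venules. The cells described here were selected by a rule on their own transcript counts from single-cell RNA-seq of dispersed pancreatic islets of NOD mice, a strain that develops autoimmune diabetes. The rule asked for at least 500 detected genes, at most 20% mitochondrial unique molecular identifiers (UMIs, each standing for 1 captured transcript), at least 3 UMIs of Rgs5, at least 2 UMIs of 1 or more of Pdgfrb, Notch3 and Acta2, fewer than 2 UMIs of Pecam1, and under 10% of UMIs from 7 islet hormone genes. It found 91 of the 16146 cells that passed the 2 quality limits, or 0.564% (exact Clopper-Pearson interval at 95% 0.454 to 0.692%). The study used mice aged 5 weeks, 2 samples with Xbp1 deleted in beta cells (Xbp1β-/-) and 2 with the floxed gene intact (Xbp1fl/fl). All had been injected with tamoxifen at 10 mg/ml. The islets were picked by hand, cultured overnight in RPMI-1640 with serum and dissociated with accutase before the cells were loaded, and the labels used here do not name the Cre driver. Barcode suffixes 1 to 4 mark 4 libraries in a pooled matrix, and no label ties a suffix to a sample, so each library is described on its own and no genotype comparison was made.

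Pericytes sit inside the capillary basement membrane and are recruited by endothelial PDGF-B acting on the receptor Pdgfrb; Notch3 receives signals from endothelial Notch ligands in the same cells. In the islet they line a dense, fenestrated capillary bed and adjust its flow. Smooth muscle cells surround the feeding arterioles and carry more of the contractile apparatus, of which smooth muscle actin (Acta2), transgelin (Tagln) and smooth muscle myosin (Myh11) are parts. Rgs5, a regulator of G-protein signalling, limits the response to vasoconstrictors. Kcnj8 and Abcc9 form the ATP-sensitive potassium channel of mural cells.

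The 4 libraries differed in makeup, which touches every value given by library. Libraries 1 to 4 held 3635, 5268, 3455 and 3788 cells after the quality limits. Cells with 50% or more hormone UMIs made up 3.66%, 51.9%, 5.53% and 47.0% of them. The selected cells numbered 30, 14, 32 and 15, which is 0.825%, 0.266%, 0.926% and 0.396% of the cells kept in each library. Libraries 1 and 3 thus held 62 of the 91, and their cells were also deeper, with medians of 16516 and 15362 UMIs against 8795 and 5328 in libraries 2 and 4. Depth bears on a rule that counts UMIs: among the 13980 cells with at least 5000 UMIs it found 29, 13, 32 and 9 cells at full depth and 17, 9, 18 and 8 after each was thinned to 5000 UMIs. The other 8 selected cells, 1, 1, 0 and 6 by library, were below 5000 UMIs and left out of that count. No selected cell shared its barcode sequence with a kept cell of another library.

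The levels of the 4 marker genes describe how cells entered the set and check no label, since the rule used them. Rgs5 (chromosome 1, 169655501 to 169695813, plus strand, in GRCm38) reached a median of 20 UMIs in library 1, 6.5 in library 2, 17 in library 3 and 6 in library 4, with a highest value of 88. Pdgfrb (chromosome 18, 61045150 to 61085061, plus strand) passed its limit in 87 of the 91 cells. Acta2 (chromosome 19, 34241090 to 34255590, minus strand) passed in 32, which were 15, 1, 15 and 1 cells by library, and was at 0 UMIs in 51. Notch3 (chromosome 17, 32120820 to 32166852, minus strand) passed in 26. All 3 passed together in 11 cells, Pdgfrb alone in 45, Acta2 alone in 3 and Notch3 alone in none. Pdgfrb with Rgs5 is thus the usual route into the set, and Acta2 was a marker of fewer cells, 30 of its 32 in libraries 1 and 3. Cnn1, a calponin of mature smooth muscle, had UMIs in 1 of the 75 cells defined in the next paragraph, and Tbx18, a mural lineage factor, in none of the 91.

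**Figure D1:**
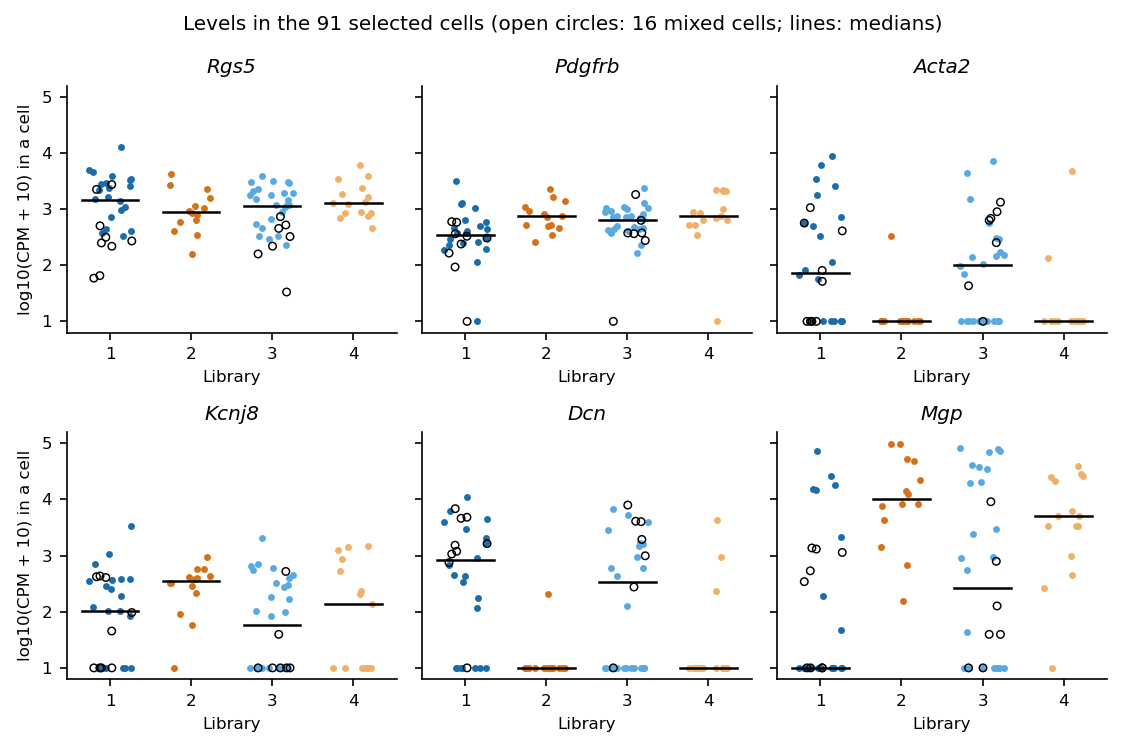
Level of 6 genes in each of the 91 selected cells, as log10(CPM + 10), by library; filled points are 75 cells, open circles the 16 with markers of another lineage, and black lines medians over all selected cells of a library. Rgs5 and Pdgfrb, genes of the rule, were seen in nearly every cell of all 4 libraries, Acta2 and Dcn mostly in libraries 1 and 3, and Mgp in all 14 cells of library 2.

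Some selected cells also carried transcripts of another lineage. Of the 91, 16 held at least 2 UMIs of Ptprc, Cdh5, Epcam, Sox10 or Pdgfra, 9 of them in library 1 and 7 in library 3. Epcam, an epithelial adhesion molecule, reached 2 UMIs in 10 cells, Pdgfra, a fibroblast receptor, in 11, and the leukocyte phosphatase Ptprc in 3, while Cdh5 and Sox10 reached it in none. Many of these 16 cells were large: 9 of them exceeded 60000 UMIs, and 8 of those carried Epcam. The smallest had 14179 UMIs, within the range of the other selected cells, which reached 30877. Together the 16 supplied 68.1% of the selected UMIs in library 1 and 52.0% in library 3. Summed values are therefore given for all 91 cells and for the 75 cells without them (21, 14, 25 and 15 by library). The 10 ductal markers summed to 5142, 63.5, 3352 and 70.2 CPM (counts scaled to the same total) in the 91 cells and to 51.7, 63.5, 27.0 and 70.2 CPM in the 75. Rgs5 was also seen outside the set, where 178 further cells had 3 or more UMIs of it without enough Pdgfrb, Notch3 or Acta2, and 170 of them had at least 2 UMIs of Epcam and none at least 2 of Kcnj8. Whether the 16 are doublets was not tested, and no doublet caller was run.

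Some limits of the rule lay close to many cells. Outside it on a single condition stood the 178 cells without a partner gene, 40 with 2 or more UMIs of Pecam1, 10 with 2 UMIs of Rgs5 and 21 with 1, beside 91 selected. At exactly 3 Rgs5 UMIs stood 9 selected cells, with 448 CPM of Pdgfrb, 33.4 CPM of Kcnj8 and 1202 CPM of Dcn. The 10 cells just outside, with 2 Rgs5 UMIs and every other condition met, had 195 CPM of Pdgfrb, 83.7 CPM of Kcnj8 and 607 CPM of Dcn. These values are descriptions, since Rgs5 chose both sets.

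The other genes were set against the nearest stromal cells. Fibroblast-gated cells (299; at least 3 UMIs of Dcn and 2 of Pdgfra, Lum or Col1a1, under 3 of Rgs5) numbered 144, 7, 142 and 6 by library, so libraries 1 and 3 entered. Of the selected cells 31, 13 and 17 of them in libraries 1 and 3, would have met this gate but for Rgs5, so that limit alone parts them from the comparison cells. A gene was called when the log2 ratio of CPM + 10 was at least 1 in the same direction in each library that entered. With no sample behind a library, no p-value was made from these ratios, and they describe these libraries only. Against fibroblast-gated cells 172 of 11021 genes were higher (1.56%) and 53 lower (0.481%). Over the 75 cells 295 of 10211 were higher (2.89%) and 281 lower (2.75%). There the comparison cells were filtered too, but less strictly. Fibroblast-gated cells lost those with Ptprc, Cdh5, Epcam or Sox10 and kept those with Pdgfra. Endothelial-gated cells lost those with Ptprc, Epcam or Sox10. Of the 172 and 53 genes, 116 and 43 were called the same way in the 75.

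Pericyte genes stood above fibroblast-gated cells as a group. Of 26 listed, 22 had enough UMIs, 12 were called higher and none lower, with a median log2 ratio of 1.40 against 0.056 over all genes tested. In the 75 cells 13 were higher and the median was 2.22, against -0.01 over all genes. This list holds Rgs5, Pdgfrb and Notch3, which chose the cells; without them 10 of 19 were higher and none lower, with a median of 1.29 (10 of 19 and 2.06 in the 75). Kcnj8, the pore of the vascular potassium channel, was at 182, 302, 135 and 445 CPM in libraries 1 to 4 of the 91 cells and at 2.78 and 8.88 CPM in the fibroblast-gated cells of libraries 1 and 3. The gap was 3.42 on the log2 scale (4.26 in the 75). Abcc9, its regulatory subunit, was at 83.6, 183, 125 and 351 CPM against 2.97 and 9.65 CPM, a log2 ratio of 2.81 (3.62 in the 75). Both channel genes were above those fibroblast levels in all 4 libraries of selected cells. The guanylate cyclase subunits Gucy1a1 and Gucy1b1, which answer nitric oxide, had log2 ratios of 2.02 and 1.92, and Vtn, Mcam, Rgs4, Ndufa4l2, Pde5a and Cox4i2 had ratios between 1.29 and 2.08. Cspg4, the NG2 proteoglycan used as a pericyte marker, was not called, at 33.0, 127, 97.4 and 93.6 CPM against 65.8 and 70.6 CPM; Cd248 and Anpep were not called either.

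Contractile genes separated these 2 kinds of cell less. Of 26 listed, 22 had enough UMIs and 6 were called higher, none lower, with a median log2 ratio of 0.57 (5 of 20 and 0.71 in the 75 cells). Myh11 was at 42.9, 95.3, 79.2 and 81.9 CPM against 1.19 and 4.05 CPM in fibroblast-gated cells, a log2 ratio of 2.45, and desmin (Des), the muscle intermediate filament, had a ratio of 1.57. Lmod1, Ppp1r14a, Synpo2 and Mylk were also called in the 91, Mylk not in the 75. Tagln was not called, at 1340, 167, 1338 and 129 CPM against 1076 and 1072 CPM, and neither was Acta2, at 535, 31.8, 851 and 129 CPM against 410 and 540 CPM. The log2 ratios of Tagln were 0.31 and 0.32, and those of Acta2 0.37 and 0.65, so in libraries 1 and 3 both genes lay near the fibroblast level.

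**Figure D2:**
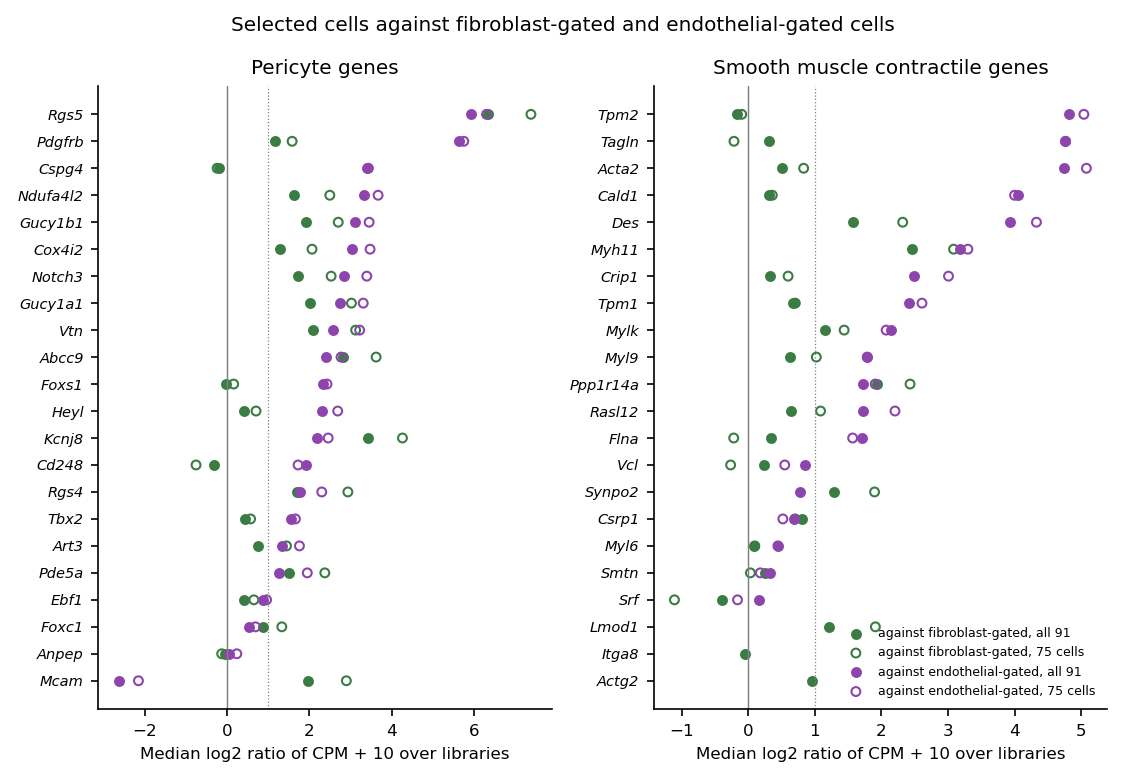
Median log2 ratio of CPM + 10 over the libraries that entered, for each tested gene of the pericyte list and of the contractile list, against fibroblast-gated cells (green, 2 libraries) and endothelial-gated cells (purple, 4 libraries); filled points use all 91 selected cells and open circles the 75, and the dotted line marks a log2 ratio of 1. Most pericyte genes lie right of the line in both comparisons, while Tagln, Acta2 and Tpm2 do so against endothelial-gated cells but not against fibroblast-gated cells.

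Serum response factor (Srf) drives contractile genes through the CArG box, so the promoters of these genes were searched for it. The RefSeq promoter table on GRCm38.p6 covers 250 bases before to 50 after a start, on the strand of the gene, and the box reads alike on both strands. It held 22 of the 26 contractile genes and 18 of the 26 pericyte genes, Tagln and Myh11 not among them. The box was found in 4 of the 22 (18.2%), in 0 of the 18, and in 1.81% of all 27025 genes of the table. The 4 are shown because they carry the only matches, with the box in capitals, from chr2:156775273-156775342 (plus strand), chr17:46556185-46556274 (minus), chr10:128493020-128493089 (minus) and chr14:20929148-20929210 (plus).
Myl9: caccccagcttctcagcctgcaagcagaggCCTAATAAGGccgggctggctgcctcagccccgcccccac
Srf: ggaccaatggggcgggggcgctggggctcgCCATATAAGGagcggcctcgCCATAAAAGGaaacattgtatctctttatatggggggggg
Myl6: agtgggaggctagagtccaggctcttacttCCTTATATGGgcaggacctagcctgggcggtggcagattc
Vcl: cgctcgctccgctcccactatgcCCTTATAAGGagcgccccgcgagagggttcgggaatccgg
The boxes lay 161, 82, 50 and 227 bases before the start, counted to their first base, with a further box in Srf. None of the 4 was called against fibroblast-gated cells: the log2 ratios were 0.63 for Myl9, a myosin light chain, -0.40 for Srf, 0.09 for Myl6 and 0.24 for the adhesion protein gene Vcl. The windows of Acta2 and Rgs5 held no match, which says only that these letters are not in that stretch.

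Receptors and channels that set vessel tone were among the called genes. Ednrb, an endothelin receptor, was at 273, 1414, 369 and 1439 CPM against 4.96 and 3.48 CPM in fibroblast-gated cells, a log2 ratio of 4.53 (5.67 in the 75 cells). The second endothelin receptor, Ednra, had a ratio of 1.19 and the prostacyclin receptor Ptgir 1.60. These were 3 of 20 tested vasoactive receptors called, with no receptor lower. The cation channel Trpc6 (1.67) and the chloride channel Ano1 (1.61) joined Kcnj8 and Abcc9 as the 4 of 15 channel genes called. The angiotensin receptor Agtr1a had too few UMIs to test, at 3.30, 31.8, 7.79 and 81.9 CPM.

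Signals that these cells could send also differed. Igfbp5, an IGF-binding protein, was at 2591, 17920, 1808 and 12040 CPM against 389 and 183 CPM, a log2 ratio of 2.97 (3.68 in the 75). Kitl, the Kit ligand, had a ratio of 1.43. Of the 31 tested growth factors and guidance cues 3 were called higher and 3 lower, the latter Fgf2, Cxcl12 and Igfbp4; in the 75 cells 4 of 30 were higher and 11 lower, with a median log2 ratio of -0.91. Pdgfa was higher by 1.51 while Pdgfra was lower by 1.49, the latter a gene that chose the fibroblast-gated cells. Nrarp, a target of Notch signalling, was higher by 1.73. Matrix genes moved in both directions. Mgp, an inhibitor of calcification, was higher by 1.65 and the basement membrane collagen Col18a1 by 2.62. Mgp had 0 UMIs in 17 of the 30 selected cells of library 1 and in 12 of the 32 of library 3. Its summed level thus rests on part of the cells. In the 75 cells 10 of 25 fibrillar matrix genes were called lower, among them Col1a2 at -1.78, Lox at -3.22 and Mmp2 at -3.34. None of those 10 was called in the 91. The 75 had lost cells with Pdgfra, while Pdgfra, Lum and Col1a1 chose the fibroblast-gated cells, which kept theirs. These lower calls, and the 11 among growth factors and guidance cues, are thus not independent of how the sets were chosen. The chemokine genes Cxcl13 and Cxcl14 were lower by 3.48 and 2.09 in the 91.

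Outside the lists, the largest ratios to fibroblast-gated cells were those of Gm13889, at 783, 2296, 1343 and 1521 CPM against 13.5 and 43.6 CPM, the phosphatase Ptp4a3, the gap junction gene Gja4 and Stc1, with log2 ratios of 4.87, 3.33, 3.24 and 3.20. Esam, an adhesion molecule shared with endothelium, followed at 3.07, then Mustn1 (3.04), Dmp1 (3.02) and Sncg (3.02). The hypoxia-inducible factor Epas1 was at 112, 207, 153 and 211 CPM against 7.34 and 9.27 CPM, a ratio of 2.95. Of the 172 higher calls 56 were not made without the 16 mixed cells, and of the 53 lower calls 10. Lcn2 had a ratio of 3.08 in the 91 and 0.59 in the 75, and 6 of 10 ductal markers were called higher in the 91, Epcam at 2.31, but none in the 75. Pdgfb was at 91.3 and 59.7 CPM in libraries 1 and 3 of the 91 cells and had 0 UMIs in the 75. Interferon genes were called higher in 2 of 30 in the 91 and 7 of 30 in the 75, with none lower. Immediate early genes were called higher in 4 of 22 in the 91, with Fos at 1.55. In the 75, 7 of the 22 immediate early genes were called higher and 2 lower. Genes of the unfolded protein response and ER folding, 28 tested, held no call in either set.

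Endothelial-gated cells (375; at least 3 UMIs of Pecam1 and 2 of Cdh5, Plvap, Kdr or Esm1, under 3 of Rgs5 and of Dcn) numbered 131, 57, 139 and 48, and all 4 libraries entered. Of 10274 genes, 263 were higher in the selected cells (2.56%) and 530 lower (5.16%); in the 75 cells these were 271 (2.91%) and 608 (6.53%) of 9317. The calls were steadier than those above, with 227 and 490 of the 263 and 530 called again in the 75. All 12 endothelial markers were lower, at a median log2 ratio of -6.45, and 5 of them had chosen the endothelial-gated cells. Of the 7 that had not, Emcn, Egfl7, Flt1, Ptprb, Tie1, Cldn5 and Ramp2, the ratios ran from -7.50 for Emcn to -3.32 for Cldn5. The 12 markers summed to 95.7, 15.9, 67.5 and 35.1 CPM in the 91 cells and to 11483, 18567, 12981 and 17301 CPM in endothelial-gated cells.

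Against endothelium pericyte genes were higher in 15 of 22 tested and lower in none (median 2.31, against -0.11 over all genes), and contractile genes in 9 of 19 (median 1.79). These counts include the genes of the rule, and Rgs5 also bounded the endothelial-gated cells. Without Rgs5, Pdgfrb, Notch3 and Acta2, 12 of 19 pericyte genes (median 2.19) and 8 of 18 contractile genes (median 1.76) were higher and none lower. Myh11, Vtn and Heyl had no UMI in any endothelial-gated cell. Tpm2, a tropomyosin, was at 262, 421, 332 and 199 CPM against 0, 0, 1.68 and 0 CPM, and Tagln had a log2 ratio of 4.76. Ednra (4.41) was called, whereas Ednrb was not: endothelial-gated cells held 208, 2208, 205 and 1860 CPM of it. Mcam, which marks both cell types, was lower by 2.62 at the median and not called. Kcnj8 was above the endothelial level in each library, by 1.31 to 3.14 on the log2 scale.

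Genes of ligand and receptor pairs were read with the rule in mind, since Pdgfrb and Notch3 had chosen the cells and their excess is no finding. Pdgfrb was at 307, 739, 504 and 971 CPM against 0, 5.77, 0 and 5.79 CPM in endothelial-gated cells, and its ligand gene Pdgfb was lower by 3.64. Notch2 and Notch3 and the target Heyl were higher, and the endothelial genes Notch1, Notch4, Jag2, Dll1, Dll4 and Hey1 lower, which makes 3 and 6 of 16 Notch genes tested. In the TGF-beta and BMP pathway Bmpr1a, Ltbp1 and Inhba were higher and Acvrl1, Eng, Bmp4, Bmpr2, Smad1 and Smad6 lower. Secreted factors above endothelium in each library were Igfbp5 (7.25), the angiogenic factor Vegfa (3.53) and the cytokine genes Il11 (6.92), Il6 (4.30), Lif (4.32) and Ccl2 (5.52). Il11 was at 4784, 3138, 1231 and 4961 CPM against 0, 15.4, 0.56 and 40.6 CPM. Fibroblast-gated cells also held 3976 and 3058 CPM in libraries 1 and 3. Of basement membrane genes Lamb2 was higher and Lama4, Lamb1, Nid2, Hspg2 and Col15a1 lower. Of 19 MHC presentation genes 6 were lower and none higher, among them H2-K1 at 1306, 524, 1095 and 246 CPM against 3106, 2097, 2453 and 1738 CPM; H2-K1 was no longer called in the 75.

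Levels in the selected cells were also compared between libraries. Over libraries 1 and 3, the 2 with at least 20 selected cells, 11 of 1925 genes at 100 CPM or more differed at least 4-fold (0.571%; in the 75 cells 12 of 1969, 0.609%). When libraries 2 and 4 were added, a choice made after the data had been seen, 308 of 2415 genes did (12.8%; in the 75 cells 276 of 2405, 11.5%). Of the 308, 197 were higher in both libraries 1 and 3 than in both 2 and 4, and 62 lower (173 and 43 of the 276). Those 2 pairs are also the libraries poor and rich in hormone-producing cells, deep and shallow in the selected cells, and rich and poor in fibroblast-gated cells, so these differences cannot be told apart from one another.

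Interferon-stimulated genes, part of the antiviral response, were on the higher side in libraries 1 and 3. In the 75 cells Isg15, a ubiquitin-like modifier, was at 2704, 15.9, 1236 and 58.5 CPM in libraries 1 to 4, with exact Poisson intervals of 2518 to 2900, 1.92 to 57.4, 1125 to 1354 and 19.0 to 137 CPM. Ifit3 was at 1890 and 741 CPM in libraries 1 and 3 and had no UMI in libraries 2 and 4, which allows up to 23.8 and 35.1 CPM there. Irf7, an interferon regulatory factor, was at 593 and 449 CPM and at 0 in the other pair, and Bst2 at 2190, 39.7, 1860 and 23.4 CPM. Libraries 1 and 3 were above libraries 2 and 4 for 28 of the 31 listed genes and below for none, against 22.6% of the 12546 genes with a UMI in the 75 cells. The genes summed to 12317, 127, 6724 and 304 CPM. In the shallower libraries 2 and 4, 23 and 21 of them had no UMI. Of the 25 that reached 100 CPM in a library all 25 were higher in libraries 1 and 3, against 25.7% of 2405 genes at that level. The intervals cover counting error only. The same 31 genes summed to 7554, 863, 5247 and 1353 CPM in endothelial-gated cells, so the contrast between libraries was also present there. In fibroblast-gated cells they summed to 4912, 269, 3938 and 2106 CPM, with library 4 well above library 2. Those 2 libraries held 7 and 6 fibroblast-gated cells, library 4 holding 6. After thinning to 2000 UMIs, Isg15 was seen in 80.0%, 7.14%, 65.6% and 6.67% of the 91 cells (93.3%, 14.3%, 78.1% and 6.67% at full depth, medians 16516, 8795, 15362 and 5328 UMIs). In up to 300 hormone-rich cells per library thinned alike it was seen in 2.27%, 0%, 1.06% and 0%. At full depth these shares were 14.4%, 3%, 10.1% and 1.33% (medians 51820, 44891, 51838 and 40190 UMIs). Libraries 1 and 3 were thus higher in the hormone-rich cells too, and the thinned shares there lie near 0.

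**Figure D3:**
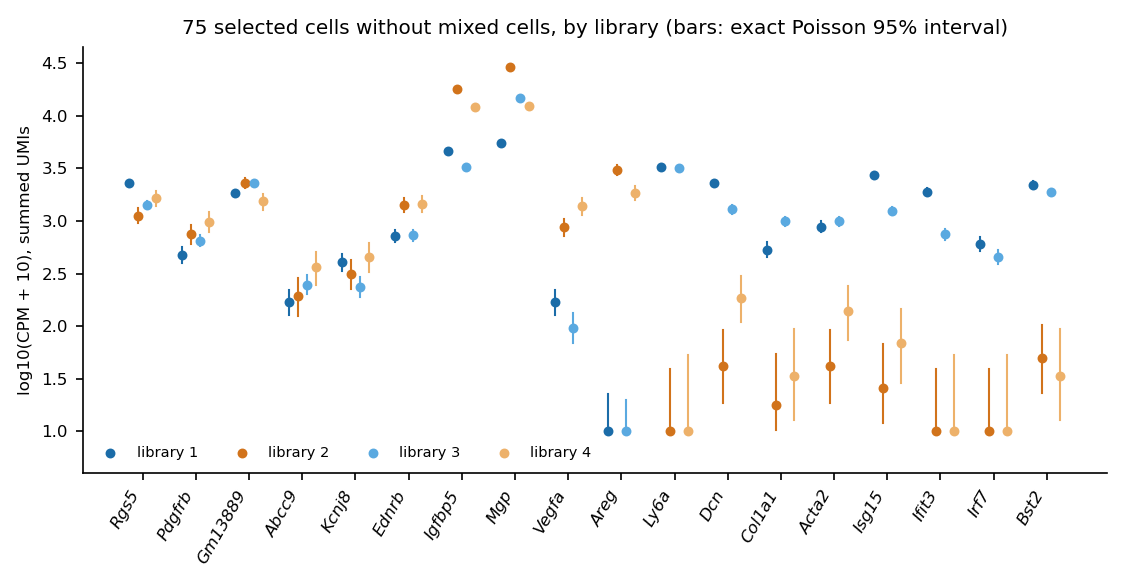
Level of 18 genes in the 75 selected cells without markers of another lineage, as log10(CPM + 10) of summed UMIs by library, with exact Poisson intervals at 95% that cover counting error only; the genes were chosen after their values had been seen. Gm13889, Abcc9, Kcnj8 and Ednrb each stay within 4-fold between libraries, as do Rgs5 and Pdgfrb, which chose the cells; Igfbp5, Vegfa and Areg are higher in libraries 2 and 4, and Ly6a to Bst2 higher in libraries 1 and 3.

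Some growth factor genes lay in the other direction, although their list as a whole did not. Of 29 growth factors and guidance cues with a UMI in the 75 cells, 14 were higher in libraries 1 and 3 and 4 lower. Over all 12546 genes these shares were 22.6% and 14.4%. In the 91 they were 19 and 7 of 33, against 31.7% and 13.1% of 14556 genes. Of the 9 that reached 100 CPM in a library of the 75, 3 were higher and 3 lower, against 25.7% and 23.8% of 2405 genes. Igfbp5 was at 4615, 17920, 3277 and 12040 CPM in the 75 cells and was seen in 19, 14, 16 and 14 of them. Vegfa was at 159, 866, 86.5 and 1369 CPM. Areg, an EGF receptor ligand, had no UMI in libraries 1 and 3 and was at 3042 and 1849 CPM in libraries 2 and 4, from 6 and 4 cells. In library 4 a single cell gave 68.3% of the Areg UMIs, and likewise 98.3% of the Spp1 UMIs (183, 6625, 54.1 and 5581 CPM), so those levels describe few cells. Hormone transcripts followed the makeup of the library: Ins2 was at 676, 15688, 746 and 10062 CPM in the 75 cells and at 655, 17491, 997 and 8172 CPM in endothelial-gated cells. Ly6a, a surface protein of stem and stromal cells, was at 3221, 0, 3158 and 0 CPM.

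Xbp1 (chromosome 11, 5520659 to 5525893, plus strand), the gene deleted in beta cells, was at 128 (105 to 153), 87.4 (43.6 to 156), 139 (114 to 168) and 304 (199 to 446) CPM in the 91 cells, with exact Poisson intervals in parentheses. Over the 91 cells the interval of library 4 lay above those of the other 3, which overlapped. Among the 75 cells, those with at least 3 Dcn UMIs had 150 and 175 CPM of Xbp1 in libraries 1 and 3. Those with fewer had 155 and 136 CPM. No interval of Xbp1 is given for the 75 cells, so the separation is stated for the 91 only. A 3' tag count of the whole gene does not show which exons a transcript carries, the deletion is labelled as one of beta cells, and no library is tied to a genotype, so these levels check no label.

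A split by decorin divided the selected cells further. It was chosen after the values had been seen and has no test. Of the 75 cells, 25 had at least 3 UMIs of Dcn, a fibroblast proteoglycan (11, 1, 11 and 2 by library), and 50 had fewer (10, 13, 14 and 13), of which 45 had none. The other 5 had 1 or 2 UMIs. Some Dcn-rich cells also lay close to the limit, with at most 4 UMIs in library 2 and at most 9 in library 4. In the Dcn-poor cells Mgp was at 14669, 34914, 28102 and 13025 CPM, and in the Dcn-rich cells of libraries 1 and 3 at 343 and 5713 CPM. In library 3 a single Dcn-rich cell at 40386 CPM gave most of that sum, with the next cell at 927 CPM. The Dcn-poor cells of library 1 ran from 0 to 72231 CPM, so the sums there rest on few cells. Over those 2 libraries 38 of 1125 genes were at least 2-fold higher in the Dcn-rich cells and 26 lower. The 38 include Dcn itself, which made the split. Higher with Dcn were the collagens Col1a1 (log2 ratio 4.87) and Col1a2 (3.75), the chemokines Ccl11 (4.45) and Cxcl5 (3.92), Apoe (3.98), Ly6a (3.70), Vtn (2.98) and Il11 (2.43). Lower with Dcn were Dmp1 (-5.76), the sodium-potassium-chloride cotransporter Slc12a2 (-5.58), Sncg (-4.84), Pdgfa (-2.07), the Kit ligand Kitl (-2.00) and Epas1 (-1.52). Rgs5 and Pdgfrb chose the cells of both sides, so their presence there follows from the rule. Rgs5 was at 1453, 1301, 1325 and 1641 CPM in the Dcn-poor cells and at 2731 and 1464 CPM in the Dcn-rich cells of libraries 1 and 3, and Pdgfrb at 775, 788, 842 and 1013 CPM against 295 and 507 CPM. The Dcn-rich cells were deeper, with medians of 16565 and 18423 UMIs against 9534 and 9918, and whether depth or other cells' RNA has a part in the split was not tested. The interferon contrast between libraries was seen within the Dcn-poor cells too, where the 31 genes summed to 10242, 114, 5828 and 231 CPM.

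Cells were also ranked by the share of Acta2 in their UMIs within libraries 1 and 3, and those above the middle set against those below it (15 against 15 and 16 against 16 cells, or 10 against 10 and 12 against 12 of the 75). These sides, called Acta2-rich and Acta2-poor, met at 70.7 against 57.9 and 97.4 against 87.0 CPM of Acta2. In the 75 they met at 104 against 57.9 and 87.0 against 0 CPM. Median UMIs were 14136 above and 17037 below in library 1, and 20845.5 and 12617 in library 3. In the 75 these were 9292 and 15067, and 13722 and 10602.5. Whether depth has a part was not tested. Over the 91 cells Tagln had the largest ratio among genes higher in both libraries, at 2204 and 1973 CPM above the middle and 227 and 70.0 CPM below it in libraries 1 and 3. In the 75 cells Aldh1a3, a retinaldehyde dehydrogenase, was above it, at 5.02 against 4.42. Of the 13 other contractile genes with 100 UMIs or more, 8 were higher in both libraries and none lower in both, with a median log2 ratio of 0.64. Over all 2900 other genes 36.5% were higher in both and 27.6% lower, with a median of 0.048. In the 75 cells 7 of 10 contractile genes were higher and 1 lower, with a median of 0.96, against 34.7% and 24.1% of 1064 genes and a median of 0.081. Besides Tagln, Flna, Myl6, Crip1 and Tpm2 were higher with ratios of 1.32, 1.22, 1.07 and 1.96, and Cald1, at -0.59, was the gene that was lower in both.

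Some markers of other cell types differed along that ranking. In the 91 cells the 6 ductal markers with enough UMIs were all lower in the Acta2-rich cells of both libraries, with a median of -0.93. Of all genes 27.6% were lower in both. Epcam, 1 of these 6, had 0 UMIs in 22 of the 30 selected cells of library 1 and in 30 of the 32 of library 3. The ductal values thus rest on few cells and describe no trend along the ranking. None of the ductal markers had enough UMIs in the 75. Of fibroblast markers 3 of 8 were higher in both libraries in the 91 (median 0.74), near the 36.5% of all genes. In the 75 only 3 had enough UMIs (median 2.35), of which Mfap5 and Gsn were higher at 4.03 and 2.35 and Dcn lower at -0.96. The collagen gene Col1a1, of another list, stood at 2.96. Their part in the values by Acta2 share was not tested.

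The genes of the pericyte channel and of several secreted factors lay on the other side of that ranking. Abcc9 was at 33.2 and 44.8 CPM in the Acta2-rich cells of libraries 1 and 3 and at 149 and 284 CPM in the Acta2-poor cells, and its ratio was -2.15 (-2.25 in the 75). Kcnj8 followed at -1.73 (-1.81), Ednrb at -2.05 (-1.52) and Stc1 at -3.26 (-2.81). Both channel subunits were thus lower in the Acta2-rich cells of both libraries, with or without the mixed cells. In the 75 cells Procr, Igfbp5, Lif and Il11 were also lower, at -2.58, -2.28, -2.88 and -4.59, the ratio of Il11 being -7.75 in 1 library and -1.43 in the other. In the 91, Cd74, H2-Eb1, Ccr7 and Bcl2a1b led the lower side at -5.05, -4.19, -4.07 and -4.74. None of those 4 had the 100 UMIs needed in the 75. The leukocyte gene Ptprc reached 2 UMIs in 2 and 1 cells of libraries 1 and 3, all left out of the 75. These 4 ratios are thus not a trait of the Acta2-poor cells at large. The ranking is a range of 1 measured gene and not a pair of cell types.

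**Figure D4:**
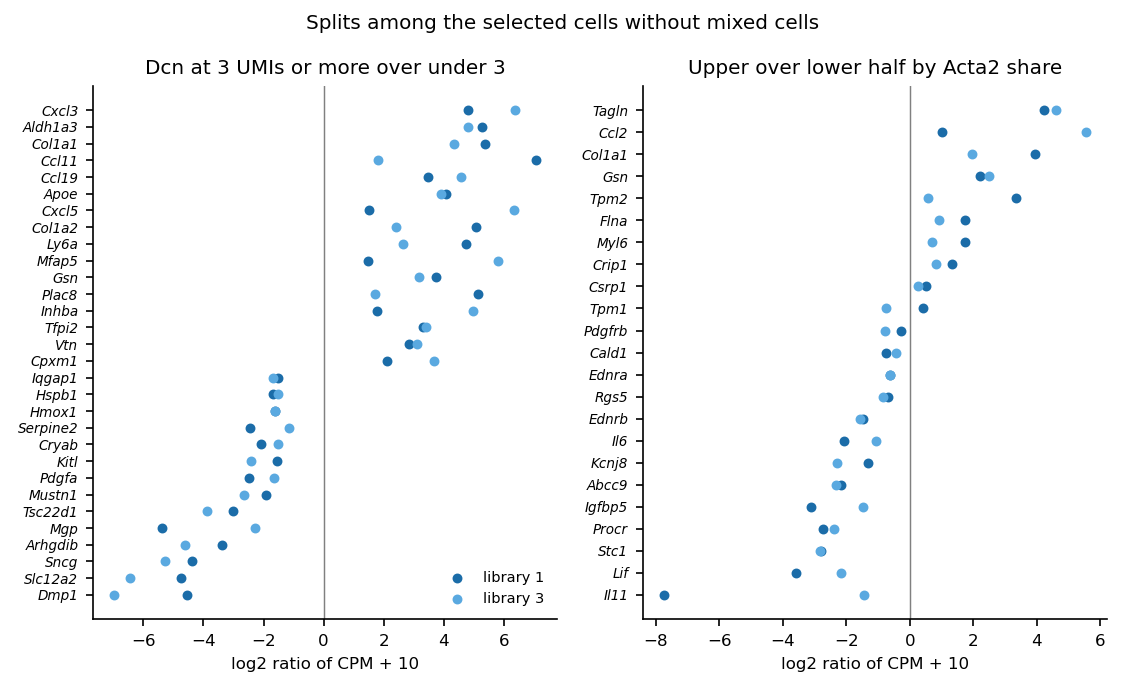
Log2 ratios of CPM + 10 in libraries 1 and 3 for the 75 selected cells, left between cells with at least 3 and under 3 UMIs of Dcn, right between cells above and below the middle of the Acta2 share; genes are the widest of the first split and, for the second, list members and the widest genes, chosen after their values had been seen. Tagln is higher with Acta2 in both libraries, and Abcc9, Kcnj8, Ednrb and Stc1 lower.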

How the data were processed

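Single-cell RNA-seq counts of 4 islet samples (2 of each genotype) were available as 1 pooled matrix of 32285 genes by 19987 barcodes. The authors deposited raw UMI counts per gene and barcode; Cell Ranger 6.1.2 and mm10 are named in the submitters' processing notes, and the annotation version is not stated there. Cells were selected by the rule given above, on counts as deposited. The members and gene lists were chosen with earlier results of these data known. Doublets were not called. UMIs were summed per library and cell set and scaled to counts per 1000000 (CPM), and log2 ratios used a pseudocount of 10 CPM over genes with at least 30 UMIs and libraries with at least 10 cells of both kinds. Intervals are exact at 95%, a count of 0 is given an upper limit of 3 counts, and both cover counting error only. Named genes were the pericyte and contractile lists, up to 5 per other list with the largest ratio of 1 sign, the 15 largest unlisted called genes, the 15 widest over libraries and the 8 widest each way by Acta2 share; others were chosen after their values were seen. Alternatives were a stricter cell filter, mixed cells left out, hormone genes left out of totals, cell means, a pseudocount of 1 CPM, no filter, each library left out, thinning, Acta2-poor cells and a 4-fold limit. Python 3.11.15, numpy 2.4.6, scipy 1.17.1 and pandas 2.3.3 were used, and the calls were tested on simulated counts. Locations come from GENCODE M21 on GRCm38, which holds 99.6% of the gene identifiers.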

Additional observations from a re-analysis of the deposited data

Results flagged for a closer look

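A set of 40 cells met every condition of the rule except the limit on Pecam1, an endothelial adhesion gene, and was used in no comparison. They numbered 2, 25, 5 and 8 in libraries 1 to 4, so library 2 held 25 such cells beside its 14 selected cells. Their median was 18363 UMIs, they carried 1093 CPM of Rgs5, 322 CPM of Pdgfrb, 16.9 CPM of Acta2 and 1392 CPM of Cdh5, and 39 of them had at least 2 UMIs of Cdh5. A further 3 cells met all conditions but the hormone limit, with a median hormone share of 42.0% of UMIs and 86.3 CPM of Rgs5.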

How the results depend on the processing

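The rule found 52 cells among the 13980 with at least 5000 UMIs after thinning to that depth, against 83 of the same cells at full depth (8 of the 91 were shallower and left out), and between 59 and 77 when a library was left out, a choice added after the data had been seen. Against fibroblast-gated cells the 172 higher and 53 lower genes became 295 and 281 without mixed cells, 273 and 208 when cells were averaged, 432 and 206 with a pseudocount of 1 CPM, 275 to 336 and 109 to 212 when library 3 or library 1 was left out, and 29 and 5 at 4-fold. With cells under 2 UMIs of Acta2 alone 175 were lower, and Lcn2, Dcdc2a and Pdgfb, called higher in all cells, turned to -0.80, -0.033 and -0.33. Against endothelial-gated cells a pseudocount of 1 CPM gave 801 lower genes; the other alternatives stayed within 1.5 times of 263 and 530. The 11 genes that differed between libraries 1 and 3 became 40 with no limit on level and 308 over 4 libraries. Leaving out a library was not run for that count, since it leaves 1 library. The median over contractile genes by Acta2 share, 0.64, was 0.96 without mixed cells, 1.04 with cell means, 0.45 with no filter and 0.45 to 0.53 when library 3 or library 1 was left out. Of 1651 values for single genes, 1339 moved by less than the spread between libraries. With 2 libraries that spread is itself poorly known, and 14 and 15 cells limit libraries 2 and 4. No paired analysis was possible because no library is tied to a sample and replicate numbers follow accession order.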
